A study of Mus musculus with 31 samples.

Results

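The 7 myeloid C-type lectin receptor genes Clec4n, Clec4d, Clec4e, Clec7a, Clec5a, Clec10a and Clec12a were followed across 31 mouse masseter muscles (MM). They were chosen by name as a receptor family, and all 7 were found among the 22609 gene symbols of the count tables. The mice were male C57BL/6J animals that received complete Freund's adjuvant (CFA, an oil emulsion with killed mycobacteria), collagenase type 2 (Col) at 0.2U or 10U, or vehicle as an injection into the MM. In the CFA experiment there were 3 mice at 1d, 3 at 5d and 3 with vehicle. The Col experiment held 3 vehicle mice, 4 mice in each of the 0.2U groups, which the labels call 1C and RPC, and for 10U 4 mice on 2d, 3 on 6d and 4 on 12d. The study's text gives other days for the earliest and latest 10U groups than the labels do, and the days of the labels are used here. The labels give no day for the 0.2U and vehicle groups. Each library is 1 mouse, and poly(A) RNA of the whole dissected muscle was sequenced, so a lower number of cells of a type and less RNA per cell cannot be told apart.

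C-type lectin receptors are surface proteins of macrophages, monocytes, neutrophils and dendritic cells that bind sugars or lipids of microbes and damaged cells. Clec4n (Dectin-2), Clec4d (MCL) and Clec4e (Mincle) signal through the adapter Fcer1g and the kinase Syk, and Clec4d and Clec4e bind mycobacterial cord factor. Clec7a (Dectin-1) binds fungal beta-glucan and carries its own activating motif, Clec5a (MDL-1) pairs with the adapter Tyrobp, Clec12a (MICL) carries an inhibitory motif, and Clec10a (MGL1) is a galactose-type lectin of macrophages and dendritic cells.

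In the mm9 build, 6 of the 7 genes lie on chromosome 6. Clec4n (chr6:123179861-123197039, plus strand), Clec4d (chr6:123212125-123225286, plus) and Clec4e (chr6:123231807-123239889, minus) are neighbours, and the ends of Clec4d and Clec4e on opposite strands are 6521 bp apart. Clec12a (chr6:129292709-129315321, plus) and Clec7a (chr6:129411611-129422790, minus) lie in a second cluster, Clec5a lies at chr6:40524897-40535804 (minus) and Clec10a at chr11:69980125-69984336 (plus). No annotated gene overlapped a member on either strand. None of the 50-base windows of the protein-coding transcripts of Clec4n, Clec4d, Clec4e, Clec7a, Clec5a or Clec12a occurred in those of another gene. Of the windows of Clec10a, 14.3% occurred in its paralog Mgl2, so the count of Clec10a is less certain. Pseudogenes and non-coding transcripts were not searched.

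The promoters of Clec4d and Clec4e, which had their highest 10U group means at 2d, and of Clec7a, which had its highest at 6d, are shown to allow a side-by-side reading. They are 300 bases each, 250 before and 50 after the start, from RefSeq on GRCm38.p6, with the first start listed for Clec7a. Entries matched 5 of the 7 genes, and Clec4n and Clec10a had none. Capitals mark GAGGAA or its reverse complement TTCCTC, the core of the site bound by the myeloid factor PU.1. The Clec4d promoter (chr6:123261857-123262156, plus strand) held it 3 times, the Clec4e promoter (chr6:123289822-123290121, minus strand) 2 times and the Clec7a promoter (chr6:129472730-129473029, minus strand) 1 time.
Clec4d: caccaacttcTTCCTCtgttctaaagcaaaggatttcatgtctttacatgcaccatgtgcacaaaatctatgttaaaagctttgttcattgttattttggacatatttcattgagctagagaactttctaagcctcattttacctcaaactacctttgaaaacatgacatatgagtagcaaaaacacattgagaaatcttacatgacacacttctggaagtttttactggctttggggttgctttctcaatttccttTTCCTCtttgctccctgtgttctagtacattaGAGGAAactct
Clec4e: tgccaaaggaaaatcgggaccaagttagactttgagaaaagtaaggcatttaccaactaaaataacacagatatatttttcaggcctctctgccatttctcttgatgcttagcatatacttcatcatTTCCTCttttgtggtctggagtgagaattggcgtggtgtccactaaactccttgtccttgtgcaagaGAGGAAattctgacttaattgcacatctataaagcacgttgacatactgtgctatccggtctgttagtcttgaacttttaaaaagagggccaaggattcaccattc
Clec7a: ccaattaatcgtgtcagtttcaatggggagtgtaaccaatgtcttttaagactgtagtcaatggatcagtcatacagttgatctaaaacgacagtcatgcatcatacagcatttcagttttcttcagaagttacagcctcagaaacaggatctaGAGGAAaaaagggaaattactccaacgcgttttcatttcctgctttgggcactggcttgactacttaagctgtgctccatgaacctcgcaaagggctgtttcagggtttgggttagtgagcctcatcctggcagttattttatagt
The same core stood 2 times each in the promoters of Clec5a and Clec12a. On both strands it was found in 28.3% of 27025 promoters of this length, 1 per gene symbol. The AP-1 letters TGANTCA, whose reverse complement is the same pattern, were found in 7.93% of them and, among the 5, 1 time in Clec12a. A match describes letters and not a site in use.

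The libraries held a median of 20834472 reads assigned to genes (14843778 to 29076671). Values per mouse are CPM, the count relative to the TMM-scaled library size, and levels between genes are given as RPKM, which also divides by exon length. All 8 skeletal muscle markers were detected in every library, with a summed level of 28170 to 174000 CPM, and the summed level of 8 salivary gland markers ran from 11.1 to 288700 CPM. Replicate 3 of each vehicle group stood apart, with 1031 CPM (CFA experiment) and 1663 CPM (Col experiment) of summed neutrophil markers against 5.48 and 16.8, and 449 and 17.1, in the other vehicle mice. In all 11 10U libraries, 0.331 to 0.399% of reads were ambiguous between genes in counting, against 0.0757 to 0.138% in the other 20, and whether all libraries were counted the same way was not tested. The part of these differences in the results below was not tested, except where values without a library are given.

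**Figure D1:**
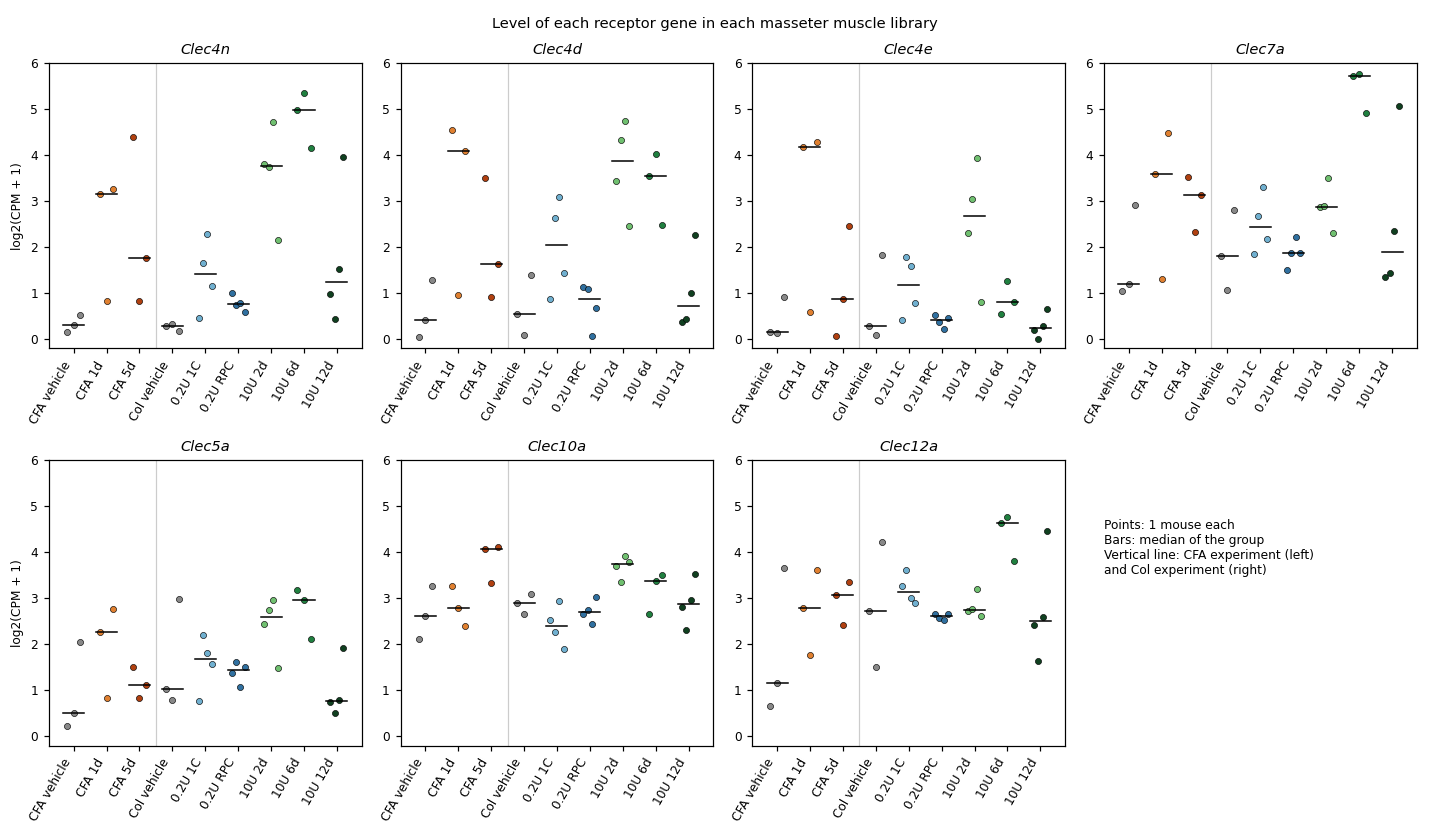
Level of each receptor gene in each mouse, as log2(CPM + 1), by group, with 1 point per mouse and a bar at the group median. For Clec4n, all treated mice of each group lie above the vehicle mice of the same experiment, and replicate 4 of the 12d group reached 14.6 CPM against at most 1.88 CPM in the other 3. Counting error is not taken into account in this separation.

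With the exon lengths used, the macrophage and dendritic cell lectin Clec10a had the highest level per length in vehicle-treated MM. Clec4n and Clec4e were among the lowest. In the Col vehicle group Clec10a stood at 3.47 ± 0.585 RPKM (SD, n = 3), followed by Clec12a at 1.63 ± 1.61, Clec7a at 1.41 ± 1.10, Clec5a at 0.754 ± 0.908, Clec4d at 0.537 ± 0.610, Clec4e at 0.374 ± 0.549 and Clec4n at 0.147 ± 0.0456 RPKM. The SD ranges of neighbours in this order overlapped throughout. The place of Clec12a depends on its exon length, set at 5139 bp. Its protein-coding transcripts held only 2417 different 50-base windows, and a shorter length would raise its level. In mean CPM, Clec12a lay above Clec10a in the Col vehicle group (8.36 against 6.43) and below it in the CFA vehicle group (4.49 against 5.67). The CFA vehicle group also had Clec10a first, at 3.06 ± 1.43 RPKM (SD, n = 3), with Clec4n at 0.188 ± 0.115 and Clec4e at 0.146 ± 0.179 RPKM last. Between the vehicle groups, 0 of the 5 members tested were called by edgeR or by DESeq2 and 0 had an unadjusted p under 0.05, against 0.0355% of all genes called higher in the Col group, 0.00% called lower and 2.32% at that unadjusted p. Clec4n and Clec4e had too few counts there to be tested. Called means here a Benjamini-Hochberg adjusted p under 0.05 over all genes tested, a change of more than 2-fold and a group mean above 1 RPKM on either side, the thresholds of the study.

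Clec4n was the member that separated treated from vehicle-treated mice most often. Its treated mice lay above every vehicle mouse of their own experiment in 7 of 7 groups, against 2 of 7 for Clec4d, 2 of 7 for Clec10a, 1 of 7 for Clec7a and 0 of 7 for Clec4e, Clec5a and Clec12a. The 5 Col groups share 1 vehicle group and the 2 CFA groups another, so these are not separate comparisons. Counting error also limits the result for Clec4n. Exact Poisson intervals of the lowest treated and highest vehicle mouse overlapped at 1d and 5d post-CFA, in 1C, in RPC and at 12d. They were apart only at 2d and 6d. edgeR's quasi-likelihood test called Clec4n in 2 of the 7 and DESeq2 in 6 of the 7. Of all genes, 3.46% to 25.1% lay above vehicle in every mouse in the single groups. The share that did so, or was called, in as many groups was not counted. With 3 to 12 counts in vehicle mice, Clec4n could be tested in these comparisons only with the counts of treated mice. The same held for Clec4d and Clec4e in both experiments and for Clec5a in the CFA experiment. Fewer than 3 of their vehicle libraries reached 10 counts, the minimum for a test. Comparisons of these members with the all-gene shares are therefore partly set by that minimum.

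At 1d post-CFA, the cord factor receptors and Clec4n were high in 2 of the 3 mice. Clec4n stood at 7.95, 0.776 and 8.54 CPM, against 0.123, 0.234 and 0.445 CPM with vehicle. Clec4e stood at 17.0, 0.502 and 18.5 CPM, against 0.123, 0.0937 and 0.889 CPM. Clec4d stood at 22.3, 0.959 and 16.0 CPM, against 0.0409, 0.328 and 1.45 CPM. In each of the 3 genes replicate 2 at 1d was near the vehicle mice and the other 2 were far above them, and the groups did not overlap for Clec4n only. Even for Clec4n, the exact Poisson intervals of replicate 2 at 1d (0.452 to 1.24 CPM) and vehicle replicate 3 (0.230 to 0.777 CPM) overlapped. The log2 fold changes were 4.37 (SE 0.97) for Clec4n, 4.37 (SE 1.33) for Clec4d and 4.94 (SE 1.38) for Clec4e, all with an edgeR adjusted p of 0.924. Without vehicle replicate 3 they were 6.20 for Clec4d and 6.75 for Clec4e (both adjusted p = 0.349).

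No member was called at 1d post-CFA by edgeR, where 0.00% of 13944 genes were called higher. At an unadjusted p under 0.05 there were 3 members, Clec4n, Clec4d and Clec4e, against 4.22% of all genes, and the 1 member whose groups were apart compares with 3.46% of all genes. All 3 could be tested only with the counts of treated mice. Vehicle counts were 1, 7 and 39 for Clec4d and 3, 2 and 24 for Clec4e. DESeq2 called 1 member, Clec4n (adjusted p = 0.00115), and 0.323% of all genes. Without replicate 2 at 1d edgeR also called Clec4n (log2 fold change 4.90, SE 0.58, adjusted p = 0.0447), and 0.138% of all genes higher. Clec7a, Clec5a, Clec12a and Clec10a had log2 fold changes of 0.12 to 1.86 with overlapping groups. Summed neutrophil markers were 133 to 737 CPM at 1d.

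At 5d post-CFA, Clec4n remained above vehicle in every mouse and Clec10a was above it too. Clec4n stood at 20.1, 0.780 and 2.38 CPM, a log2 fold change of 4.88 (SE 1.29, edgeR adjusted p = 0.134), and rested mainly on replicate 1. Its lowest 5d mouse had 15 counts. The exact Poisson interval of that mouse (0.437 to 1.29 CPM) overlapped that of the highest vehicle mouse (0.230 to 0.777 CPM). Clec10a stood at 15.9, 9.0 and 16.4 CPM against 3.35, 5.11 and 8.56 CPM with vehicle (log2 fold change 1.34, SE 0.41, edgeR adjusted p = 0.191). The lowest 5d mouse was just above the highest vehicle mouse, and their 95% exact Poisson intervals (7.71 to 10.4 and 7.49 to 9.74 CPM) overlapped. Clec4d had a log2 fold change of 2.89 (SE 1.22, edgeR adjusted p = 0.352) and overlapping groups.

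edgeR called 0 of 7 members at 5d (0.913% of all genes), 3 had an unadjusted p under 0.05 (14.0%), 2 had groups apart (12.0%), and DESeq2 called 1, Clec4n (adjusted p = 0.000142, against 3.56% of all genes). Summed salivary gland markers were 131400 to 165500 CPM in the 5d mice, against 106 to 15020 CPM with vehicle and 74.1 to 9167 CPM at 1d, and dendritic cell markers were 127 to 192 CPM, against 26.7 to 96.3 and 49.2 to 87.5 CPM. Their part in the levels at 5d was not tested. The count of calls turned on 1 library. Without vehicle replicate 3, the one rich in neutrophil markers, edgeR called 5 members, Clec4n, Clec4d, Clec7a, Clec10a and Clec12a, with log2 fold changes of 5.55, 4.73, 2.76, 1.82 and 3.09 (adjusted p = 0.0339, 0.0287, 0.00335, 0.00569 and 0.00224). In that fit 7.23% of all genes were called higher. Clec5a then had a log2 fold change of 2.24 (adjusted p = 0.0329) but no group mean over 1 RPKM.

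From 1d to 5d post-CFA, Clec10a was higher in every mouse (8.63, 5.89 and 4.27 CPM at 1d), with a log2 fold change of 1.21 (SE 0.35, edgeR adjusted p = 0.0998). DESeq2 called it (adjusted p = 0.0206, against 4.55% of all genes called higher), and so did edgeR without replicate 1 at 1d (log2 fold change 1.50, adjusted p = 0.0468, with 3.80% of all genes called higher). It was the 1 member with groups apart (13.1% of all genes) and with an unadjusted p under 0.05 (19.7%), and edgeR called 0 members with all mice (3.70%). Clec4e had 4.50, 0.833 and 0.0465 CPM at 5d and overlapped with 1d.

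After 0.2U Col, Clec4n was the only member apart from vehicle in both groups, and its levels stayed low. In group 1C it stood at 0.385, 2.14, 3.89 and 1.24 CPM and in group RPC at 1.01, 0.670, 0.716 and 0.514 CPM, against 0.228, 0.261 and 0.136 CPM in the Col vehicle group. These vehicle values are 5, 4 and 3 counts. The log2 fold changes were 3.21 (SE 0.82, edgeR adjusted p = 0.261) in 1C and 1.85 (SE 0.47, edgeR adjusted p = 0.265) in RPC. The lowest 1C mouse had 7 counts, whose 95% exact Poisson interval of 0.155 to 0.792 CPM overlapped that of the highest vehicle mouse (0.0711 to 0.668 CPM), counting error only. The interval of the lowest RPC mouse (11 counts, 0.257 to 0.920 CPM) overlapped that of the same vehicle mouse too.

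edgeR called 0 of 7 members in 1C and 0 of 6 tested in RPC, where 0.00% and 0.00% of all genes were called higher. At an unadjusted p under 0.05 there was 1 member in each, Clec4n, against 12.6% and 13.5% of all genes, and groups were apart for 1 member in each, against 4.35% and 4.21%. DESeq2 called Clec4n in 1C (adjusted p = 0.0129, against 1.79% of all genes) and gave it no adjusted p in RPC. Clec4d stood at 0.824, 5.23, 7.47 and 1.72 CPM in 1C and at 0.0551 to 1.20 CPM in RPC, against 0.0652 to 1.63 CPM with vehicle. Summed skin keratinocyte markers were 299.7 to 576 CPM in 1C and 105 to 482 CPM in RPC, against 58.8 to 151 CPM with vehicle, and their part in the result was not tested. The adjusted p of the other members ran from 0.399 to 0.999 in 1C and from 0.628 to 0.989 in RPC.

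At 2d post-Col (10U), Clec4n, Clec4d and Clec10a were higher in all 4 mice than in any vehicle mouse. Clec4n stood at 12.9, 12.4, 25.2 and 3.45 CPM, a log2 fold change of 6.01 (SE 0.77, edgeR adjusted p = 0.0251), and was called. Clec4d stood at 9.77, 19.2, 25.9 and 4.50 CPM, against 0.455, 0.0652 and 1.63 CPM with vehicle, a log2 fold change of 4.31 (SE 0.96, edgeR adjusted p = 0.0540). Clec10a stood at 12.0, 9.28, 14.1 and 12.8 CPM against 6.42, 5.35 and 7.52 CPM, a log2 fold change of 0.92 (SE 0.24, edgeR adjusted p = 0.0643). Clec10a had the smallest change and the tightest groups of the 3, and Clec4n and Clec4d were lowest in replicate 4.

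Clec4e, whose product binds cord factor and lipids of dead cells, stood at 3.94, 7.31, 14.3 and 0.750 CPM at 2d against 0.228, 0.0652 and 2.54 CPM with vehicle. The high vehicle value is that of replicate 3, and the groups overlapped (log2 fold change 2.75, SE 1.26, edgeR adjusted p = 0.168). Leaving out 1 mouse at a time moved the log2 fold change between 2.04 (without 2d replicate 3) and 5.33 (without vehicle replicate 3), with an adjusted p of 0.0628 in the latter. edgeR called 1 of 7 members at 2d, against 0.946% of all genes. DESeq2 called 3, Clec4n, Clec4d and Clec4e (adjusted p = 1.02e-13, 9.53e-06 and 0.0494, against 6.80% of all genes), and the 3 members with groups apart compare with 10.7% of all genes.

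Single mice moved these calls. Clec4n had an edgeR adjusted p of 0.132 and 0.0871 without vehicle replicates 1 and 2 and of 0.0931 and 0.0971 without 2d replicates 1 and 2, with log2 fold changes of 6.04 to 6.14. In these fits 0.0703% to 0.112% of all genes were called higher. Clec4d was called without vehicle replicate 3 (log2 fold change 5.69, adjusted p = 0.0483) and without 2d replicate 4 (4.60, adjusted p = 0.00734), where 2.31% and 9.33% of all genes were called higher. Clec7a, Clec5a and Clec12a had adjusted p values of 0.229 to 0.648. Summed muscle markers were 28170 to 56950 CPM at 2d against 94900 to 138700 CPM with vehicle, and leukocyte markers were 108 to 374 against 23.6 to 181 CPM.

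At 6d post-Col (10U), Clec4n and the beta-glucan receptor Clec7a had their highest group means in the series. For Clec4n the 6d mice overlapped with the 2d mice (log2 fold change 1.10, SE 0.56, edgeR adjusted p = 0.260). Clec4n stood at 30.5, 39.6 and 16.7 CPM, a log2 fold change of 7.11 (SE 0.46, edgeR adjusted p = 0.000548). Clec7a stood at 51.9, 53.5 and 29.0 CPM against 2.50, 1.11 and 5.98 CPM with vehicle, a log2 fold change of 3.77 (SE 0.57, edgeR adjusted p = 0.00629). Clec4d stood at 10.6, 15.2 and 4.59 CPM, a log2 fold change of 3.74 (SE 0.85, edgeR adjusted p = 0.0202). All 3 were called and had groups apart, and replicate 3 was the lowest of the 6d mice in each.

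These 3 of 7 members compare with 8.10% of all genes called higher by edgeR and 25.1% with groups apart. Without vehicle replicate 3 edgeR called 5 members, adding Clec5a (log2 fold change 2.75, adjusted p = 0.0096) and Clec12a (2.48, adjusted p = 0.0146), while Clec4e (2.45, adjusted p = 0.0431) had no group mean over 1 RPKM. In that fit 11.4% of all genes were called higher. Without 6d replicate 1 or 2 it called 1, Clec7a, since Clec4n then had too few libraries over 10 counts to be tested and Clec4d had an adjusted p of 0.0685 and 0.0819. All-gene shares were then 4.16% and 3.16%. Without vehicle replicate 1 Clec4d had an adjusted p of 0.0598.

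Clec12a, the inhibitory receptor, stood at 24.0, 26.1 and 13.1 CPM at 6d against 5.60, 1.83 and 17.7 CPM with vehicle (log2 fold change 1.30, SE 0.70, edgeR adjusted p = 0.191). Clec5a, Clec10a and Clec4e had log2 fold changes of -0.17 to 1.03. Clec4e was at 0.471, 1.39 and 0.752 CPM, within the vehicle range, and the sign of its change turned on vehicle replicate 3, as given above. At 6d summed leukocyte markers were 187 to 376 CPM, macrophage markers 873 to 1448 CPM against 288 to 467 CPM with vehicle, and monocyte markers 1299 to 2181 CPM against 81.4 to 400 CPM. The monocyte list includes Fn1, which fibroblasts also express. None of the leukocyte or macrophage markers was at 0 in these libraries, and neutrophil markers were 25.8 to 34.9 CPM at 6d against 134 to 473 CPM at 2d.

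**Figure D2:**
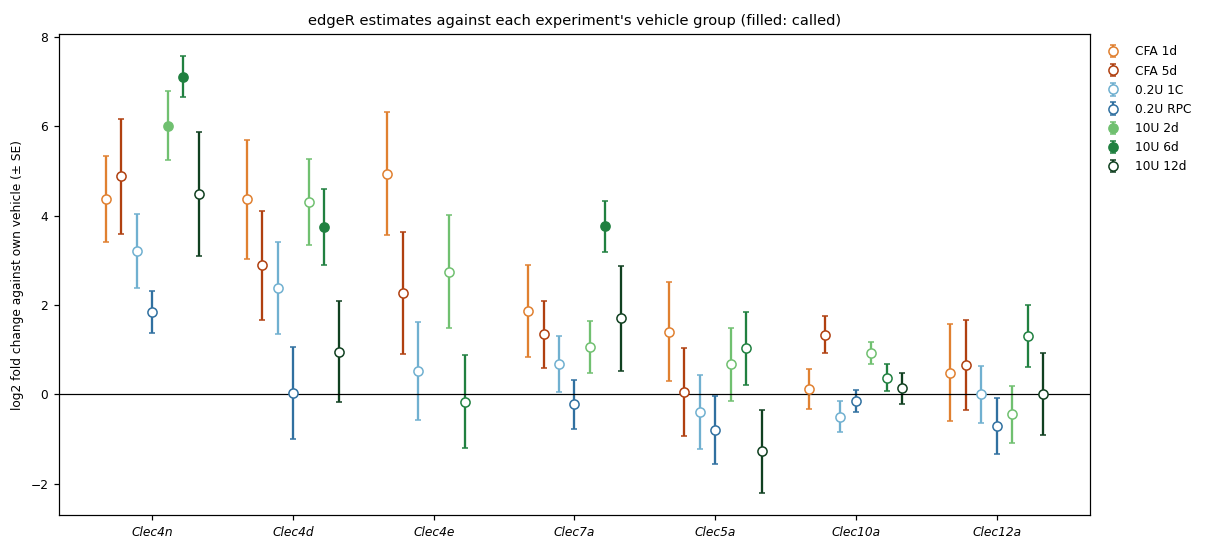
Log2 fold change of each member against the vehicle group of its own experiment, with its SE, by edgeR. Filled points are called, which are Clec4n at 2d and 6d and Clec4d and Clec7a at 6d post-Col (10U), and Clec4e was not tested in RPC and at 12d.

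The members did not move together between 2d and 6d. Clec7a was 2.72 higher on the log2 scale at 6d than at 2d (SE 0.33, edgeR adjusted p = 0.00586), where it had stood at 6.30, 6.44, 10.2 and 3.98 CPM. Clec12a was 1.76 higher (SE 0.28, edgeR adjusted p = 0.0133), from 5.57, 5.78, 8.21 and 5.10 CPM at 2d. Both were called and had groups apart. Clec4e went the other way, with a log2 fold change of -2.91 (SE 0.91, edgeR adjusted p = 0.0888) and overlapping groups. DESeq2 called it lower (adjusted p = 0.00368, against 4.31% of all genes called lower), and so did edgeR without 2d replicate 4 (log2 fold change -3.28, adjusted p = 0.00540, with 4.56% of all genes called lower).

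These 2 of 7 members compare with 2.90% of all genes called higher by edgeR, 4.18% by DESeq2, which called the same 2, and 12.9% with groups apart. Clec7a passed the test without any 1 mouse, and Clec12a did not without 2d replicate 2 (adjusted p = 0.0512), 6d replicate 1 (0.0667) or 6d replicate 2 (0.0771). Those 3 fits called 1.21%, 1.14% and 0.692% of all genes higher. Clec4n, Clec4d, Clec5a and Clec10a had log2 fold changes of -0.56 to 1.10 and adjusted p values of 0.240 to 0.677.

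Per length, the order of the members changed with time. At 2d Clec4d (11.1 ± 7.14 RPKM, SD, n = 4) and Clec4n (9.49 ± 6.28) led, with Clec10a at 6.50 ± 1.09 next, and Clec7a followed at 2.97 ± 1.14, Clec4e at 2.61 ± 2.31, Clec5a at 1.23 ± 0.565 and Clec12a at 1.20 ± 0.271 RPKM. Among these neighbours the SD ranges of Clec10a and Clec7a alone did not overlap. At 6d Clec4n (20.4 ± 8.10 RPKM, SD, n = 3) and Clec7a (19.7 ± 6.04) led, and Clec4d at 7.59 ± 3.99 lay below them by more than the SD ranges. Clec10a stood at 4.51 ± 1.45, Clec12a at 4.10 ± 1.36, Clec5a at 1.58 ± 0.645 and Clec4e at 0.346 ± 0.187 RPKM, and the SD ranges did not overlap between Clec12a and Clec5a or between Clec5a and Clec4e. The place of Clec12a in both orders depends on the exon length used, and a shorter one would move it up.

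**Figure D3:**
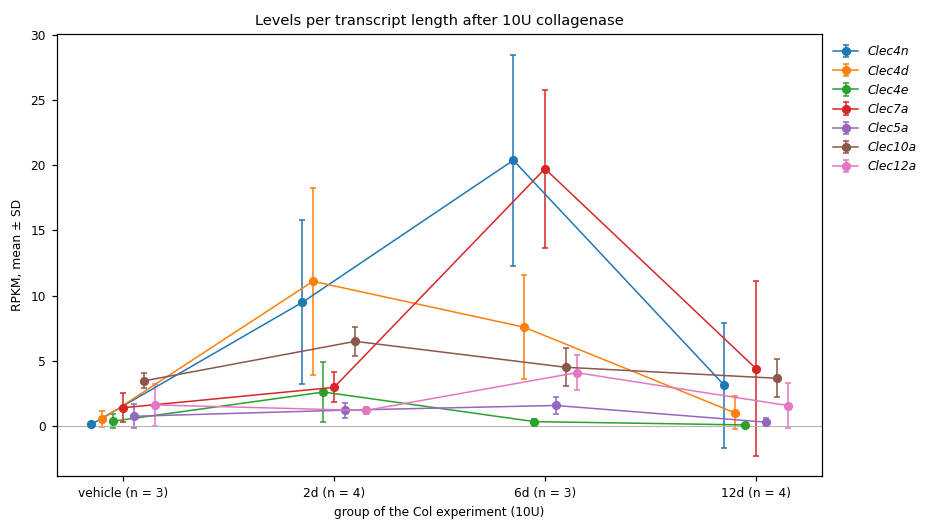
Mean RPKM of each member with its SD in the vehicle, 2d, 6d and 12d groups of the Col experiment (10U). Clec4n and Clec7a stand highest at 6d, at 20.4 and 19.7 RPKM, whereas Clec4d (11.1 RPKM) and Clec4e (2.61 RPKM) stand highest at 2d.

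By 12d post-Col (10U), 3 of the 4 mice were near vehicle levels in most members and replicate 4 was not. Clec4n stood at 0.964, 0.362, 1.88 and 14.6 CPM, above the vehicle mice in all 4 (log2 fold change 4.49, SE 1.39, edgeR adjusted p = 0.178). The lowest of these is 6 counts, with a 95% exact Poisson interval of 0.133 to 0.788 CPM. That interval overlapped the one of the highest vehicle mouse (0.0711 to 0.668 CPM). Clec7a stood at 1.54, 1.69, 4.10 and 32.8 CPM and Clec12a at 4.34, 2.11, 5.04 and 21.0 CPM, so that replicate 4 was at the 6d levels in both. edgeR called 0 of 6 members tested (0.466% of all genes) and 1, Clec4n, had an unadjusted p under 0.05 (17.4%). It was also the 1 member with groups apart (8.55%) and the 1 called by DESeq2 (adjusted p = 0.00265, against 1.34% of all genes). Without replicate 4 Clec4n had too few libraries over 10 counts to be tested.

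From 6d to 12d, Clec4d and Clec5a fell by 2.83 (SE 0.83, edgeR adjusted p = 0.0415) and by 2.34 (SE 0.63, edgeR adjusted p = 0.0339) on the log2 scale. Clec4d went to 0.289, 0.362, 0.996 and 3.83 CPM. Clec5a went from 8.05, 6.81 and 3.30 CPM to 0.675, 0.423, 0.720 and 2.81 CPM. For both, all 12d mice lay below all 6d mice, as they did for Clec4n (log2 fold change -2.66, SE 1.01, edgeR adjusted p = 0.0830). The 2 members called compare with 5.09% of all genes called lower by edgeR and 6.59% by DESeq2, which called the same 2, and the 3 with groups apart compare with 19.3%.

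These calls turned on single mice. Without 12d replicate 4, edgeR called 5 members lower at 12d than at 6d, Clec4n, Clec4d, Clec7a, Clec5a and Clec12a, by 4.75, 4.22, 4.21, 3.31 and 2.46 on the log2 scale (adjusted p = 0.000439, 0.00096, 0.000351, 0.000688 and 0.00110). In that fit 11.2% of all genes were called lower. Without any 1 of the other 12d mice or of the 6d mice it called 0, with adjusted p values of 0.0600 to 0.154 for Clec4d and 0.0520 to 0.119 for Clec5a. In those fits 0.495% to 3.24% of all genes were called lower.

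Set against leukocyte markers, a denominator chosen after the values had been seen, the members differed in how far they followed the leukocyte content of the library. The values are CPM of the member per 100 summed CPM of Ptprc, Itgam, Itgb2, Coro1a and Laptm5, and carry no test. Clec4n had a median of 0.351 (range 0.0751 to 1.11) in the Col vehicle group, 6.21 (3.19 to 7.42) at 2d, 10.5 (8.95 to 11.5) at 6d and 2.95 (1.13 to 8.37) at 12d. Clec4d had 0.702 (0.277 to 0.902), 6.26 (4.17 to 8.85), 4.01 (2.45 to 4.04) and 1.49 (0.721 to 2.19). Per leukocyte marker, then, Clec4n was highest at 6d and Clec4d at 2d.

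Per leukocyte marker, Clec7a at 6d lay above the vehicle and 2d mice, whose ranges overlapped. It had a median of 3.86 (3.31 to 4.71) with vehicle, 3.29 (2.74 to 3.68) at 2d and 15.5 (14.2 to 19.6) at 6d. Clec12a had 8.63 (7.76 to 9.77), 2.93 (2.19 to 4.72) and 7.01 (6.93 to 9.07), so its 2d mice lay below both other groups. Clec4e had 0.351 (0.277 to 1.40), 2.82 (0.694 to 3.83) and 0.369 (0.178 to 0.402).

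At 2d, 2 members (Clec4n and Clec4d) lay above vehicle in every mouse on this scale, against 0.710% of all genes, and 1 (Clec12a) lay below it, against 6.67%. At 6d there were 3 above (Clec4n, Clec4d and Clec7a, against 2.06%), and at 12d 1 (Clec4n, against 1.59%). From 2d to 6d, 3 members were higher in every mouse (Clec4n, Clec7a and Clec12a, against 3.38%) and 2 were lower (Clec4d and Clec4e, against 5.88%). At 1d post-CFA 3 were above vehicle (Clec4n, Clec4d and Clec4e, against 0.280%), and at 5d 2 (Clec4n and Clec4d, against 3.05%). Counting error was not taken into account in these separations. For Clec4e at 1d the lowest mouse stood at 0.897 (11 counts) and the highest vehicle mouse at 0.760 (3 counts). In CPM, Clec4d and Clec4e overlapped with vehicle at 1d, and Clec4d did at 5d. In 1C 1 member was above vehicle (Clec4d, against 0.221%), and in RPC 1 was below it (Clec12a, against 0.413%). For Clec4d the lowest 1C mouse (0.916, from 15 counts) was nearly level with the highest vehicle mouse (0.902, from 36 counts). That gap is smaller than the counting error of 15 counts. Clec12a reached at most 6.65 in RPC and at least 7.76 with vehicle. Clec4n overlapped with vehicle in both 0.2U groups on this scale, at 0.428 to 2.08 in 1C and 0.598 to 0.994 in RPC, so that it was apart in 5 of 7 groups.

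With 10 macrophage markers as the denominator, also chosen after the values had been seen, some of these separations were not found. Clec4n was above vehicle in every mouse at 1d post-CFA (0.452% of all genes), in RPC (0.806%), at 2d (2.07%), at 6d (3.80%) and at 12d (4.44%), whereas no member was at 5d post-CFA (2.81%) or in 1C (1.68%). Clec4d was above vehicle at 2d and 6d and Clec7a at 6d. Clec10a was below vehicle at 6d, where 76.0% of all genes were. From 2d to 6d, Clec7a and Clec12a were higher (2.35%) and Clec4e and Clec10a lower (38.8%), and Clec4n overlapped (0.684 to 3.12 at 2d and 1.92 to 2.89 at 6d, per 100 CPM of macrophage markers).

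**Figure D4:**
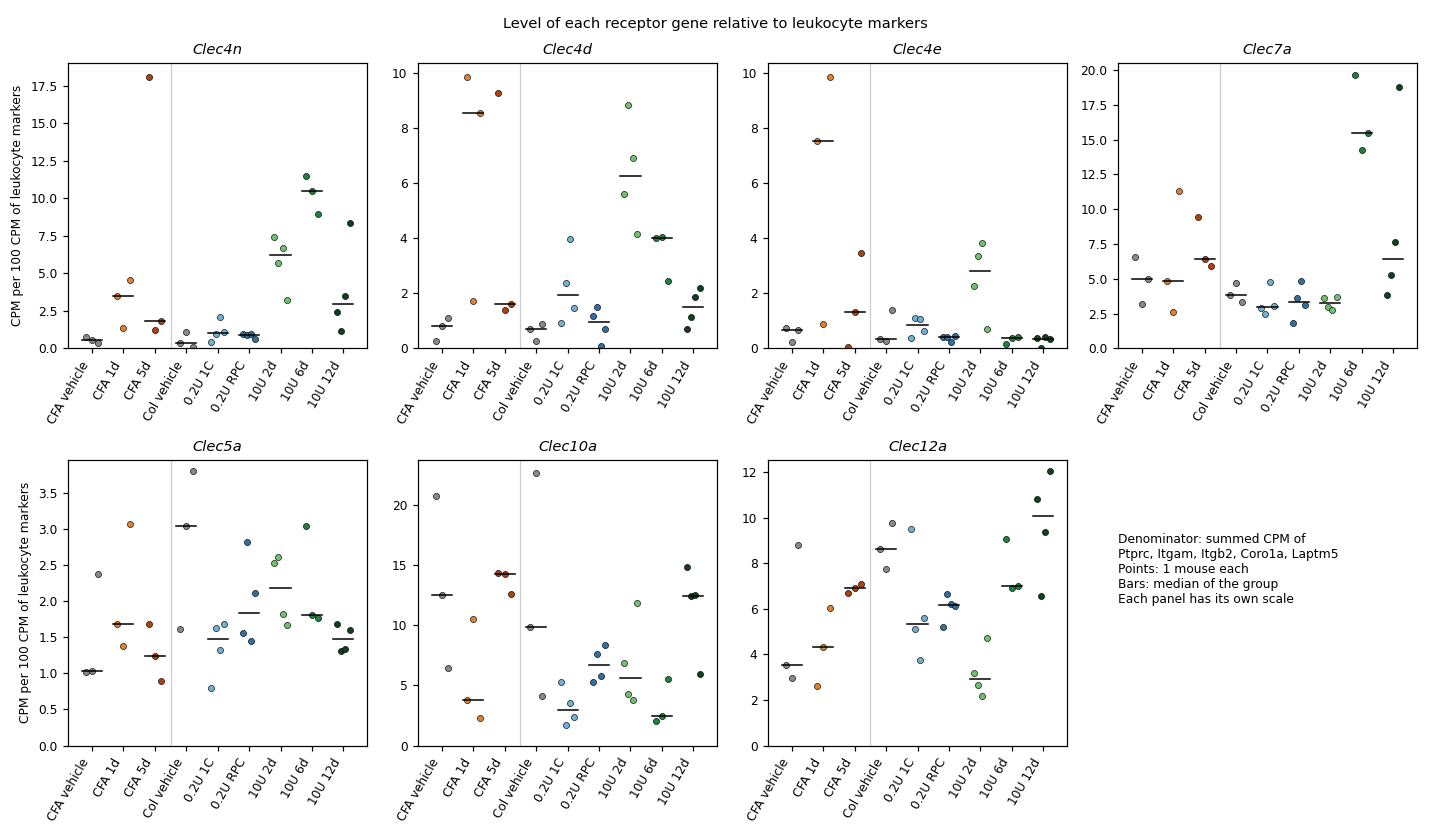
Each member per 100 summed CPM of 5 leukocyte markers, with 1 point per mouse, a bar at the group median and a separate scale in each panel. Clec7a is between 14.2 and 19.6 in the 6d mice and between 2.74 and 3.68 in the 2d mice, and Clec12a is between 2.19 and 4.72 in the 2d mice and between 7.76 and 9.77 with vehicle.

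Whether the early responses to CFA and to 10U Col differed was tested as an interaction, with label days of 1 and 2. No member was called by edgeR or DESeq2 and 0 had an unadjusted p under 0.05, against 0.0338% of all genes called higher for CFA, 0.0473% called higher for Col and 6.83% at that unadjusted p. The difference was 2.20 (SE 1.89) on the log2 scale for Clec4e, larger post-CFA, but -0.40 without Col vehicle replicate 3, and -1.62 (SE 1.24) for Clec4n, and the adjusted p of the 7 members ran from 0.760 to 0.996.

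Of 20 tested adapters and kinases below the receptors, edgeR called 2 higher at 6d post-Col (10U), a share near the 8.10% of all genes. The adapter Fcer1g rose by 2.49 (SE 0.47, edgeR adjusted p = 0.0124) on the log2 scale, from a mean of 15.0 to 85.4 RPKM, and the adapter Tyrobp by 2.13 (SE 0.51, edgeR adjusted p = 0.0237), from 24.2 to 107 RPKM. The median log2 fold change was 0.44 over the list and 0.01 over all genes. From 6d to 12d, 4 of 20 fell, Ptpn6, Fcer1g, Card9 and Plcg2, by 2.45, 2.27, 1.55 and 1.24, against 5.09% of all genes called lower. By edgeR no gene of the list was called in the other comparisons with vehicle, and DESeq2 called 2 of 19 at 2d, against 6.80% of all genes.

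Of the cytokines and enzymes that these receptors induce, 3 of 9 tested rose at 6d post-Col (10U), against 8.10% of all genes. They were the chemokine Ccl3 by 5.69 (SE 0.79), the prostaglandin synthase Ptgs2 by 3.52 (SE 0.56) and the transcription factor Egr3 by 3.27 (SE 0.68), with edgeR adjusted p values of 0.00485, 0.00716 and 0.0158. The list's median was 2.43. At 2d all 11 tested had a log2 fold change above 0, with a median of 2.97, and edgeR called 0 and DESeq2 7 (0.946% and 6.80% of all genes). Between the vehicle groups only 5 of the 16 listed had enough counts to be tested. Some of those tested at 2d and 6d thus needed the counts of treated mice to be tested. Their directions and the list's medians were therefore partly set by the count filter. From 6d to 12d, Ccl3, Il1b, Egr3 and Ptgs2 fell, 4 of 9, against 5.09% of all genes. At 5d post-CFA 1 of 9 was called, Ccl3, with a log2 fold change of 4.54, against 0.913% of all genes.

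Of 16 other C-type lectins of myeloid cells tested at 6d, edgeR called 3 higher and 2 lower, against 8.10% and 7.28% of all genes. Whether these counts differ from the all-gene shares was not tested, and the list's median log2 fold change was 0.30. Clec4a3 and Clec4a1, whose genes belong to the same family as Clec4n, rose by 3.23 (SE 0.36, edgeR adjusted p = 0.00269) and 2.49 (SE 0.41, edgeR adjusted p = 0.00843), and were called at 2d too, at 2.46 and 1.98 (2 of 18 tested, against 0.946% of all genes). The mannose receptor Mrc1 rose by 1.54 (SE 0.41, edgeR adjusted p = 0.0320). Cd209d fell by 3.32 (SE 0.67, edgeR adjusted p = 0.0143) and Cd209f, which shares 29.7% of its windows with Cd209g, by 1.46. Cd209d was called higher at 12d than at 6d, by 2.31, against 4.61% of all genes called higher.

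Over the 31 libraries, each member's log2(CPM + 1) was compared with that of 15519 other genes, as a description. The 3 genes most like Clec4n were Trem2 (Pearson r = 0.942), Tlr1 (0.936) and Gm11428 (0.923), those most like Clec4d were Lilrb4 (0.947), Msr1 (0.946) and Gp49a (0.946), and those most like Clec4e were F10 (0.932), Tarm1 (0.914) and Dok2 (0.907). Clec7a was most like Ly9 (0.932), AF251705 (0.923) and Fam105a (0.922), Clec5a like Plek (0.950), Lcp2 (0.934) and Fgr (0.933), and Clec12a like Cybb (0.960), Glipr1 (0.903) and Hvcn1 (0.894). Clec10a had no close partner, the highest being Lyn (0.681), Naip2 (0.669) and Fgd2 (0.660). Some of these genes share windows with another gene, so their counts are less certain, and the shares over 5% were 29.3% for Lilrb4 and 25.9% for Gp49a with each other, 17.4% for Tlr1 with Tlr6, 6.90% for AF251705 with Cd300a, 18.5% for Glipr1 with Krr1, 14.1% for Hvcn1 with Tctn1 and 18.2% for Naip2 with other Naip genes.

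Among the members themselves, r was highest for Clec4n with Clec4d (0.881), Clec4n with Clec7a (0.858) and Clec7a with Clec12a (0.845), and lowest for Clec4e with Clec10a (0.312). With the group means removed these values were 0.876, 0.796, 0.846 and 0.235, so mice of a group that were high in one of the first 3 pairs tended to be high in the other gene too. The libraries share their treatment groups and tissue makeup, so such values describe likeness across these mice.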

How the data were processed

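Poly(A) RNA of whole MM was sequenced by the authors from stranded libraries with single-end reads of 50 bases. TopHat2, HTSeq and build mm9 are named in the submitters' processing notes; the annotation and strand setting used for counting are not given in the sources used here. The deposited values are raw counts per gene symbol, neither normalized nor filtered by the authors. The members and gene lists were chosen with earlier results of these data known. Lines of unassigned reads were kept out of library sizes. The number of reads per gene sets the precision, and the Poisson intervals given cover counting error only.

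Exon lengths came from GENCODE vM1 (21627 symbols matched by name, 87 by synonym; 895 took the median of 2842 bp). A gene was tested where 3 or more libraries of the comparison reached 10 counts, and all such genes were fitted together with edgeR 4.0.16 (R 4.3.3; TMM, quasi-likelihood test, group as the only factor), with Benjamini-Hochberg adjustment. SEs were obtained from F, as the size of the change over root F. DESeq2 1.42.0, edgeR with the size factors of DESeq2, leaving off the count filter or the RPKM threshold, 1 fit of all libraries, both vehicle groups as reference, the replicate number as a block and leaving out each mouse were alternatives. Ratios to marker lists were added after the data were seen. List genes named are at most 4 called genes per list and comparison, those with the largest change; Cd209f was named beyond that after its values were seen. The scripts were tested on simulated data.

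Replicate numbers are those of the labels, and nothing states that same-numbered mice share a litter or day. Deviations from group means of same-numbered mice correlated above 0.1 in every pair at 1d post-CFA against vehicle (r = 0.107 to 0.534) and between the vehicle groups (r = 0.103 to 0.652), and the block changed no member's call in either. No library pair among 465 held identical values. The labels do not say that the mice of a group came from separate litters or days, so p-values measure the spread between these mice.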

Additional observations from a re-analysis of the deposited data

Results flagged for a closer look

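Among the 28 member and group combinations with 4 mice, a single mouse stood far from the other 3 in 4. The flag marks a large gap to the next mouse for the range of the group, with a limit set for about 5% of single groups. Levels of the members are correlated within groups, so the 28 are not separate and their number of flags was not set against chance. All 4 were replicate 4 at 12d post-Col (10U). Its Clec4n level was 14.6 CPM against 0.362 to 1.88 CPM in the other mice, Clec7a was 32.8 against 1.54 to 4.10 CPM, Clec5a was 2.81 against 0.423 to 0.720 CPM, and Clec12a was 21.0 against 2.11 to 5.04 CPM. Its summed monocyte markers were 1575 CPM, against 148 to 369 CPM in the other 12d mice. The part of this mouse's tissue makeup in these levels was not tested.

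Between days, 4 members were called by a direct test of the groups. From 2d to 6d Clec7a rose by 2.72 and Clec12a by 1.76 on the log2 scale, and from 6d to 12d Clec4d fell by 2.83 and Clec5a fell by 2.34. Only the call of Clec7a held without any 1 mouse. Those of Clec4d and Clec5a were lost without any 1 mouse other than 12d replicate 4, and that of Clec12a was lost in some such fits. With all mice, edgeR called neither Clec5a nor Clec12a against vehicle on any day.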

How the results depend on the processing

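Of the alternatives for the members' fold changes given one by one, 367 kept direction and side of the threshold, 31 passed it newly, 25 no longer passed and 12 changed direction. Those 12 were Clec4e at 6d (0.70 under the replicate block, 0.38 with both vehicle groups, and a range of -0.69 to 2.45 without 1 mouse), Clec5a at 5d post-CFA (0 with DESeq2 size factors, -0.68 with both vehicle groups, and -0.48 to 2.24 without 1 mouse), Clec10a at 1d post-CFA (-0.18 to 0.60 without 1 mouse) and the Clec4e difference between CFA and Col (-0.40 to 3.95 without 1 mouse). Of 643 alternatives for the 47 other pairs of a member and a comparison, 62 changed direction, in 26 pairs, and 0 of these had an adjusted p under 0.05. DESeq2 called 1 member at 1d post-CFA, 1 at 5d, 1 in 1C, 3 at 2d, 1 at 12d and 1 from 1d to 5d post-CFA, against 0, 0, 0, 1, 0 and 0 by edgeR, with the all-gene shares given above. One fit of all 31 libraries called 2 at 2d, 1 at 12d and 1 from 2d to 6d, where it called 7.74%, 1.26% and 3.30% of all genes higher. Both vehicle groups as reference gave 1 in 1C, 4 at 2d and 1 at 12d. For that reference and for the replicate block, all-gene shares were not taken. The replicate block, although the numbers do not pair these mice, gave 3 at 2d and 5 from 6d to 12d. Under it Clec4d at 6d had an adjusted p of 0.0702, and the block changed no other count by over 1.5 times. Leaving out 1 mouse at a time gave 0 to 1 members at 1d post-CFA, 0 to 5 at 5d, 0 to 2 at 2d, 1 to 5 at 6d, 0 to 1 from 1d to 5d post-CFA, 1 to 3 from 2d to 6d and 0 to 5 from 6d to 12d. For the first 6 of these, all-gene shares called higher were 0.00% to 0.138%, 0.00% to 7.23%, 0.0703% to 9.33%, 3.16% to 11.4%, 1.41% to 4.26% and 0.692% to 5.75%. From 6d to 12d, 0.495% to 11.2% were called lower. DESeq2 size factors, no low-count filter and no RPKM threshold moved no count past that limit. Counts of 3 to 12 in vehicle mice limit the precision of every Clec4n fold change.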
